A study of Oryza sativa with 12 samples.

Results

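The comparison described here is that of 2 *indica* rice cultivars, Swarna and Pokkali, in the elongating peduncle before heading (EP). The peduncle is the uppermost internode, which carries the panicle. Swarna is the shorter, elite cultivar and Pokkali a taller, salt-tolerant landrace. Both were grown untreated in an open field, and the EP was collected a few days before heading, when the panicle was still inside the leaf sheath. By the study, Pokkali headed later after sowing than Swarna, and its EP was longer on average at that stage. Cultivar therefore cannot be told apart here from plant age and from how far the peduncle had elongated. Total RNA from 6 of the 12 libraries of the series, 3 of Swarna EP and 3 of Pokkali EP, entered this comparison, and the other 6 are non-elongating peduncles after heading (NP) of the same cultivars. The deposited values hold 1 value per gene for each of the 4 groups, in FPKM, which is mapped fragments scaled to transcript length and to the depth of the library. There is therefore no replicate check, no error and no test for any gene below, and a difference describes these groups of libraries. Of 53380 annotated loci with a value of their own, 19126 reached 1 FPKM in at least 1 of the 4 groups and were compared.

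The peduncle grows by cell division and cell expansion in a meristem at its base, and its elongation near heading pushes the panicle out of the flag leaf sheath. Gibberellin, auxin and brassinosteroid are known to promote internode elongation in rice, whereas abscisic acid (ABA) and jasmonate (JA) are known to restrain growth. Cellulose is laid down by cellulose synthase (CESA) complexes in the expanding primary wall and later in the thickened secondary wall, where lignin is also deposited. The stem of rice also stores starch and sucrose that are later moved to the grain.

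The log2 ratio of Swarna over Pokkali was taken on FPKM plus 0.5, which understates the change of low genes, and a gene was counted as different when the cultivars were at least 2-fold apart on that scale. In the EP, 3331 of the 19126 genes (17.4%) were at least 2-fold apart, 1433 (7.49%) of them in favour of Swarna and 1898 (9.92%) in favour of Pokkali. A ratio of 4-fold or more was reached by 376 genes in favour of Swarna and by 301 in favour of Pokkali. The median log2 ratio over all genes was -0.06, and the middle 50% of genes lay between -0.51 and 0.36. In the NP, 7784 of the same genes (40.7%) were at least 2-fold apart, with 3907 (20.4%) in favour of Swarna and 3877 (20.3%) in favour of Pokkali.

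The direction went with the level of the gene. Among 2549 genes with a mean below 1 FPKM in the EP, 13.6% were higher in Swarna and 5.69% were higher in Pokkali. Among the 101 genes with a mean of 300 FPKM or more, 1.98% were higher in Swarna and 25.7% were higher in Pokkali. The median log2 ratio was 0.17 in the lowest of these classes and -0.53 in the highest, and it was -0.25 for genes between 10 and 30 FPKM and -0.47 for genes between 30 and 100 FPKM. Summed over all loci, the FPKM values were 330514 in Swarna EP and 419002 in Pokkali EP. When both sums were set equal, 2335 genes were higher in Swarna and 1098 were higher in Pokkali, so that 68.0% of the differing genes were higher in Swarna in place of 43.0%, and the median log2 ratio of all genes moved to 0.21. With the median ratio of the expressed genes set to 1 the share was 53.9%. Which cultivar has more differing genes thus rests on the scaling, and the part of library composition in it was not tested. For this reason a value for all genes at a like level is given beside several lists below. Each member was assigned the median ratio of all genes in its class of EP level, and the median of these over the list is given. For a list that spans many classes it describes the middle member only.

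**Figure D1:**
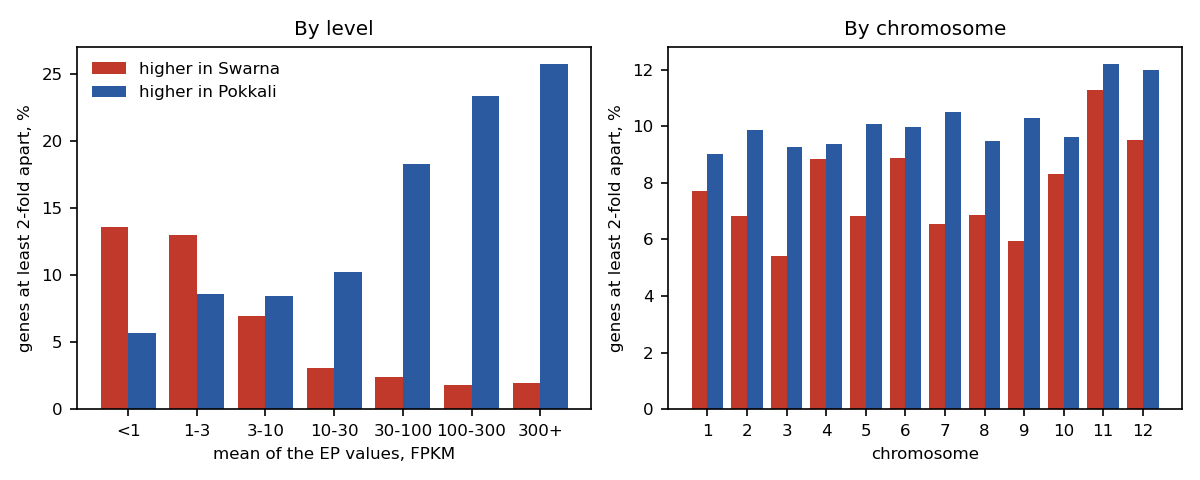
Share of genes at least 2-fold apart between Swarna (red) and Pokkali (blue) in the EP, in percent, by the mean FPKM of the EP values (left) and by chromosome (right). The share higher in Swarna goes down to 1.98% and the share higher in Pokkali up to 25.7% in the highest class of level, and chromosomes 11 and 12 have the highest shares of genes that differ in either direction.

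The gene lists used below were chosen by the study among genes that differed between EP and NP in these same samples, so they are no independent evidence. Each count is to be read against the 7.49% and 9.92% of all genes, but these shares change with the level. Between 100 and 300 FPKM, 23.3% of genes were higher in Pokkali, and between 1 and 3 FPKM, 13% were higher in Swarna. No share at a like level was calculated for the lists, so part of a count can be the trend with level. In a bulk tissue, fewer cells of a type and less RNA per cell cannot be told apart.

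**Figure D2:**
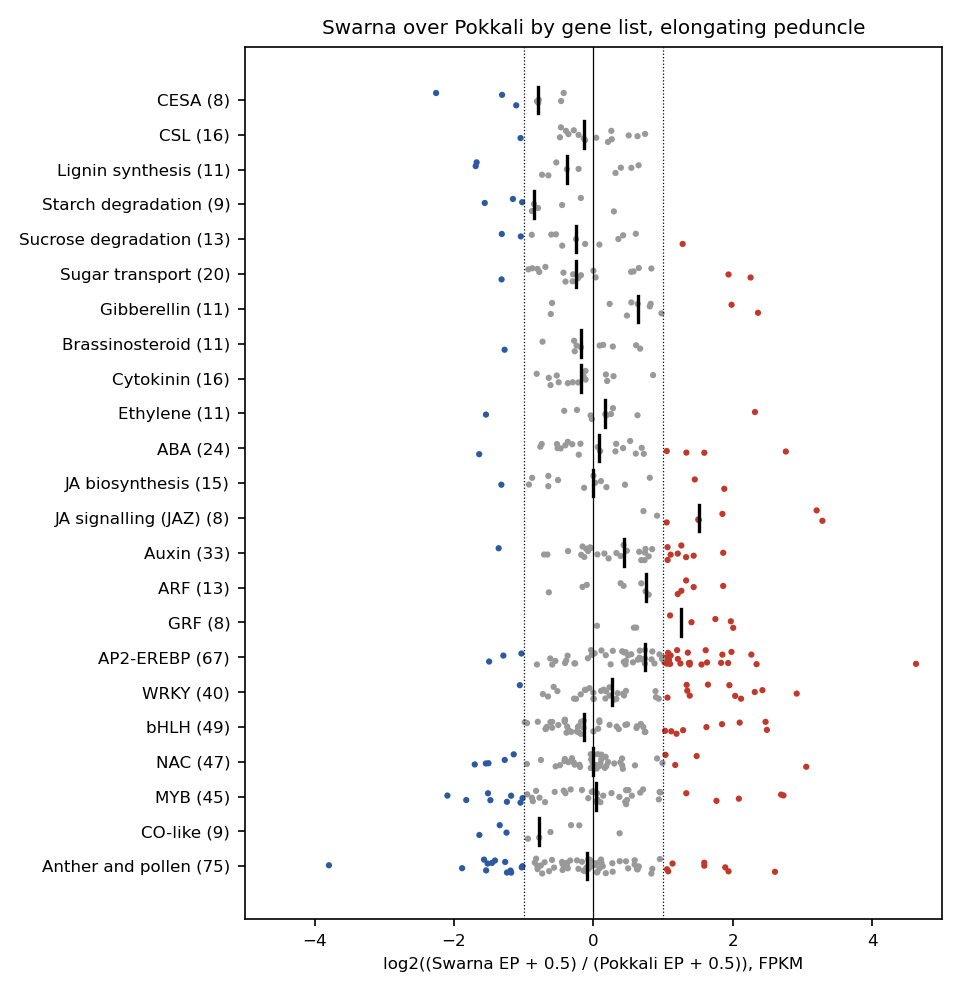
Log2 ratio of Swarna over Pokkali in the EP for each compared gene of the lists (horizontal axis, FPKM plus 0.5), with the number of compared genes in brackets. Red and blue points are at least 2-fold higher in Swarna and in Pokkali, grey points are less than 2-fold apart, dotted lines mark the 2-fold limits and black bars the medians. All 8 JAZ and all 8 GRF genes lie right of 0 and all 8 CESA genes left of 0, and after quantile normalization 7 of 8 GRF and 7 of 8 CESA genes do.

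Cellulose synthase genes were lower in Swarna. All 8 *CESA* genes had a lower FPKM in Swarna EP than in Pokkali EP, with a median log2 ratio of -0.80, and 3 of 8 were past 2-fold. All genes at a like level had -0.48. *CESA4*, a catalytic subunit of the secondary wall complex, had 54.9 FPKM in Swarna, against 264 in Pokkali (log2 ratio -2.26). Another secondary wall subunit, *CESA7*, had 68.1 FPKM in Swarna, against 169.5 in Pokkali (-1.31), and *CESA3*, a subunit of the primary wall complex, had 170.0 FPKM in Swarna, against 367 in Pokkali (-1.11). The other primary wall subunits were closer together, with 179 FPKM in Swarna and 309 in Pokkali for *CESA1* and 145 FPKM in Swarna and 255 in Pokkali for *CESA8*. The ratio of *CESA4* is thus the lowest of the family, well beyond that of the primary wall subunits. With equal column sums *CESA7* was at -0.97 and *CESA3* at -0.77, and *CESA4* was the only member past 2-fold. All 8 were lower in Swarna under that scaling too, and 7 of 8 after quantile normalization. After heading all 8 were again lower in Swarna, 6 of them past 2-fold, and *CESA4* had 5.94 FPKM in Swarna and 138 in Pokkali.

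The cellulose synthase-like (*CSL*) genes, whose products make other wall polysaccharides such as mannans and mixed-linkage glucans, were closer together before heading. Of 16 compared, 7 had a higher and 9 a lower value in Swarna EP, with a median log2 ratio of -0.13. After heading 12 of 16 were lower in Swarna, 8 of them past 2-fold, and 1 was past 2-fold higher, with a median of -0.87. The only one past 2-fold was *CSLF8*, with 3.77 FPKM in Swarna, against 8.31 in Pokkali, and it was under 2-fold when the sums were equal. *CSLF6*, which makes mixed-linkage glucan, had 79.5 FPKM in Swarna and 105 in Pokkali. The highest ratio was that of *CSLA1*, with 95.2 FPKM in Swarna and 56.8 in Pokkali (0.74).

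Of the phenylalanine ammonia lyase (*PAL*) genes, which code for the entry enzyme of the phenylpropanoid pathway, LOC_Os04g43760 had 75.8 FPKM in Swarna, against 243 in Pokkali (-1.68). A second *PAL* gene, LOC_Os02g41630, had 738 FPKM in Swarna and 1230.0 in Pokkali, a difference under 2-fold. *OsPAL4* had 31.1 FPKM in Swarna and 40.6 in Pokkali (-0.38). *OsPAL2* went the other way, with 3.95 FPKM in Swarna and 3.07 in Pokkali (0.32). Of the 11 lignin synthesis genes in all, 0 were past 2-fold higher in Swarna and 2 (18.2%) were higher in Pokkali. The ratio was above 0 for 4 of 11, or 6 of 11 after quantile normalization, and the median log2 ratio was -0.38, where all genes at a like level had -0.25. The *PAL* gene LOC_Os04g43760 stayed past 2-fold under each scaling tried.

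Of 42 carbohydrate genes compared, 3 (7.14%) were higher in Swarna and 6 (14.3%) were higher in Pokkali, with a median log2 ratio of -0.35, where all genes at a like level had -0.25. *SUS1*, a sucrose synthase that cleaves sucrose in growing tissues, had 535 FPKM in Swarna, against 1332 in Pokkali (-1.31), the largest difference in FPKM of the list. The vacuolar invertase gene *INV3/VIN2* had 24.9 FPKM in Swarna, against 51.7 in Pokkali (-1.04), and it was under 2-fold under each other scaling tried, between -0.57 and -0.90. The neutral invertase gene *NIN2* went the other way, with 35.3 FPKM in Swarna, against 14.2 in Pokkali (1.28). Sucrose cleavage genes therefore differed in both directions, with 5 of 13 above and 8 of 13 below 0.

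Starch degradation genes were mostly lower in Swarna, with 8 of 9 below 0 (7 of 9 with equal column sums) and a median log2 ratio of -0.85, where all genes at a like level had -0.47. Past 2-fold were the disproportionating enzyme gene *DPEI*, with 21.9 FPKM in Swarna, against 49.3 in Pokkali, the plastidial starch phosphorylase gene *PHOL/PHO1*, with 36.2 FPKM in Swarna, against 73.98 in Pokkali, and the alpha-amylase gene *Ramy2A*, with 1.18 FPKM in Swarna, against 4.46 in Pokkali. *BAM3*, a beta-amylase gene, was the exception, with 36.9 FPKM in Swarna and 30.01 in Pokkali. *SUS1*, *DPEI* and *PHOL/PHO1* were under 2-fold with equal column sums, at -0.97, -0.82 and -0.68.

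Of 20 sugar transporters, the monosaccharide transporter genes *MST6* and *MST4* were higher in Swarna. *MST6* had 78.8 FPKM in Swarna, against 20.2 in Pokkali (1.94) and *MST4*, in a span shared with another gene, had 3.81 FPKM in Swarna, against 0.403 in Pokkali (2.25). *TPT1*, a triose phosphate translocator gene whose span is also shared, was higher in Pokkali, with 43.1 FPKM in Swarna, against 108 in Pokkali, but under 2-fold with equal column sums (-0.98) and after quantile normalization (-0.84). None of the 11 *SWEET* sugar exporter genes was 2-fold apart in the EP on the scale used, and 8 reached 1 FPKM in Swarna EP or Pokkali EP. Without the added 0.5, the low *SWEET2b* was 2.43-fold higher in Pokkali and the low *SWEET14* 2.32-fold higher in Swarna. The sucrose transporter gene *SUT1* had 10.5 FPKM in Swarna and 18.7 in Pokkali. After heading *MST4* had 1245 FPKM in Swarna and 11.97 in Pokkali, and *SWEET* genes had 4 members higher in Swarna and 2 higher in Pokkali.

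Hormone genes leaned towards Swarna. Of 130 compared, 23 (17.7%) were at least 2-fold higher in Swarna and 5 (3.85%) were higher in Pokkali. The median log2 ratio was 0.18, where all genes at a like level had -0.25. Most of the 23 belonged to JA signalling, auxin signalling and ABA.

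The *JAZ* genes code for repressors of jasmonate signalling that jasmonate itself induces. All 8 were higher in Swarna EP than in Pokkali EP, 6 of 8 past 2-fold, with a median log2 ratio of 1.51. *OsJAZ1* had 6.8 FPKM in Swarna, against 0.249 in Pokkali (3.28), *OsJAZ5* had 22.99 FPKM in Swarna, against 2.05 in Pokkali (3.2), and *OsJAZ2* had 48.1 FPKM in Swarna, against 16.6 in Pokkali (1.5). *OsJAZ3*, the most abundant member, had 122 FPKM in Swarna and 74.03 in Pokkali (0.72), and *OsJAZ9* was low in both, at 0.499 FPKM in Swarna and 0.0308 in Pokkali. *OsJAZ6*, *OsJAZ1* and *OsJAZ5* are neighbours on chromosome 3, between positions 4232001 and 4250063 of the Rice Genome Annotation Project version 7 genome, and all 3 are past 2-fold. Setting the column sums equal put all 8 past 2-fold. After heading all 8 were past 2-fold in the same direction, with 363 FPKM in Swarna and 3.76 in Pokkali for *OsJAZ1*.

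Genes of JA synthesis were spread around 0, with a median log2 ratio of 0 over 15 genes. Allene oxide synthase *OsAOS2*, which makes the first committed precursor, had 19.4 FPKM in Swarna, against 4.93 in Pokkali (1.88), and the lipase gene *OsDAD1;3* had 5.4 FPKM in Swarna, against 1.65 in Pokkali (1.45). *OsKAT*, a thiolase gene of the beta-oxidation steps, was higher in Pokkali, with 23.7 FPKM in Swarna, against 59.9 in Pokkali (-1.32), but under 2-fold with equal column sums (-0.98) and after quantile normalization (-0.91). The allene oxide cyclase gene *OsAOC* had 45.8 FPKM in Swarna and 25.95 in Pokkali, under 2-fold. Both lipoxygenase genes *OsLOX2;1* and *OsLOX2;3* were close to 0 in the EP, at 0 FPKM in Swarna and 0 in Pokkali and at 0.0708 FPKM in Swarna and 0.0297 in Pokkali.

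Among 24 ABA genes, 4 were higher in Swarna and 1 was higher in Pokkali. The 9-cis-epoxycarotenoid dioxygenase step, which limits ABA synthesis, was higher in Swarna at both listed hormone genes. *OsNCED1* (LOC_Os03g44380, named *OsNCED3* in another table of the study) had 91.2 FPKM in Swarna, against 29.9 in Pokkali (1.59). *OsNCED2* (LOC_Os12g42280) had 7.8 FPKM in Swarna, against 0.726 in Pokkali (2.76). *OsABA2*, the gene for a later step that in Arabidopsis makes abscisic aldehyde, went the other way, with 11.01 FPKM in Swarna, against 35.3 in Pokkali (-1.64). The ABA 8'-hydroxylase gene *OsABA8OX1*, which inactivates ABA, had 19.3 FPKM in Swarna, against 9.04 in Pokkali (1.05), and its relatives *OsABA8OX2* and *OsABA8OX3* had 34.98 FPKM in Swarna and 32.7 in Pokkali and 2.59 FPKM in Swarna and 2.45 in Pokkali. None of the 5 *PP2C* phosphatase genes of ABA signalling was past 2-fold. Both synthesis and breakdown genes were therefore among those higher in Swarna.

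In the auxin list, 8 of 33 genes were higher in Swarna and 1 was higher in Pokkali. The auxin response factors (*ARF*), which bind the promoters of auxin-responsive genes, stood at a median log2 ratio of 0.75 over 13 genes, against -0.25 for all genes at a like level, 5 of them past 2-fold higher in Swarna and none higher in Pokkali. *OsARF1* had 18.3 FPKM in Swarna, against 4.68 in Pokkali (1.86), *OsARF6* had 33.8 FPKM in Swarna, against 12.2 in Pokkali (1.44), and *OsARF17* had 106 FPKM in Swarna, against 45.4 in Pokkali (1.21). *OsARF19* had 13.9 FPKM in Swarna, against 5.25 in Pokkali, in a span that holds a second gene. *OsARF12* and *OsARF2* were close, with 65.8 FPKM in Swarna and 50.1 in Pokkali and 20.2 FPKM in Swarna and 22.5 in Pokkali. The *AUX/IAA* repressors, which auxin removes to free the *ARF* proteins, had a median of 0.01 over 18 genes. Of these, *OsIAA15* had 123 FPKM in Swarna, against 58.7 in Pokkali, *OsIAA20* had 13.4 FPKM in Swarna, against 5.96 in Pokkali and *OsIAA9* had 16.4 FPKM in Swarna, against 7.57 in Pokkali, the only ones past 2-fold in Swarna, and *OsIAA7* was higher in Pokkali, with 0.437 FPKM in Swarna and 1.9 in Pokkali. The receptor gene *OsTIR1;1* had 26.3 FPKM in Swarna and 14.5 in Pokkali, under 2-fold.

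Of 11 gibberellin genes, 9 were above 0 and 2 were past 2-fold, both higher in Swarna and both for enzymes that inactivate gibberellin. *GA2ox4* had 11.9 FPKM in Swarna, against 1.92 in Pokkali (2.36) and *GA2ox6* had 2.02 FPKM in Swarna, against 0.137 in Pokkali (1.98). The most abundant of the 4 *GA2ox* genes, *GA2ox3*, had 112 FPKM in Swarna and 64.01 in Pokkali (0.81), and *GA2ox7* had 1.49 FPKM in Swarna and 0.509 in Pokkali (0.98), so all 4 had the higher value in Swarna, also under each scaling tried. The other deactivation gene of the list, *EUIL1*, went the other way, with 1.16 FPKM in Swarna and 2.01 in Pokkali (-0.59). The receptor gene *GID1* had 15.7 FPKM in Swarna and 8.68 in Pokkali and the DELLA repressor gene *SLR1* had 105 FPKM in Swarna and 67.1 in Pokkali, both under 2-fold. The synthesis genes *GA20ox1*, *GA20ox4* and *GA3ox2* were all below 1 FPKM in both cultivars before heading.

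Ethylene, brassinosteroid and cytokinin genes gave few differences. *OsACS1*, a synthase of the ethylene precursor, had 7.45 FPKM in Swarna, against 1.1 in Pokkali (2.32), whereas *OsACO3*, an oxidase that converts the precursor to ethylene, had 59.9 FPKM in Swarna, against 175 in Pokkali (-1.54). The related *OsACO1* had 77.9 FPKM in Swarna and 79.1 in Pokkali. Among 11 brassinosteroid genes, *OsBRL1* was the only one past 2-fold, at 0.77 FPKM in Swarna, against 2.57 in Pokkali, and the receptor gene *OsBRI1* had 27.9 FPKM in Swarna and 25.2 in Pokkali. None of 16 cytokinin genes was 2-fold apart, and their ratios ran between -0.81 and 0.86.

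**Figure D3:**
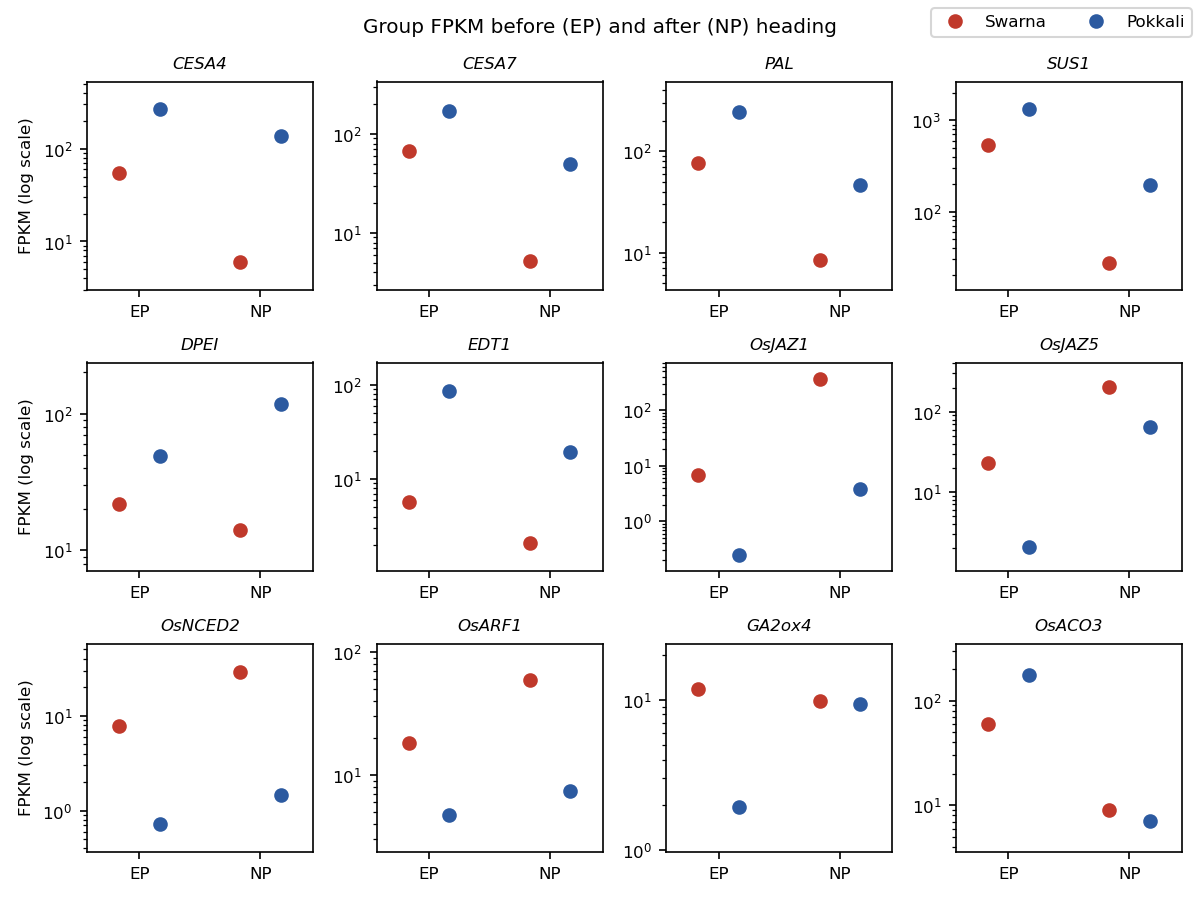
FPKM of 12 genes (vertical axes, log scale) in Swarna (red, left) and Pokkali (blue, right) in the EP before heading and the NP after heading, with 1 group value per point. *CESA4*, *CESA7*, the *PAL* gene LOC_Os04g43760, *SUS1*, *DPEI* and *EDT1* were lower in Swarna at both stages and *OsJAZ1*, *OsJAZ5*, *OsNCED2* and *OsARF1* higher at both, while the cultivars were less than 2-fold apart after heading for *GA2ox4* and *OsACO3*.

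Transcription factor genes leaned towards Swarna as well. Of 780 compared, 113 (14.5%) were higher in Swarna and 47 (6.03%) were higher in Pokkali. The median log2 ratio was 0.11, where all genes at a like level had -0.0008. The members below have a family but no symbol in the study's table, so they are given by locus.

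Growth-regulating factors (*GRF*), plant transcription factors that promote cell proliferation in growing organs, had the higher value in Swarna for all 8 genes, 5 of 8 past 2-fold, with a median log2 ratio of 1.25, and after quantile normalization 7 of 8 had it, with the same number past 2-fold. LOC_Os02g53690 had 6.2 FPKM in Swarna, against 1.17 in Pokkali (2.01), LOC_Os02g47280 had 5.98 FPKM in Swarna, against 1.15 in Pokkali (1.97), and the most abundant member, LOC_Os04g51190, had 54.9 FPKM in Swarna, against 25.4 in Pokkali (1.1). After heading 1 member was past 2-fold in each direction, and the 8 genes lay between 0.05 and 1.67 FPKM in Swarna.

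In the AP2-EREBP family, which includes the ethylene response factors and the DREB factors of the stress response, 26 of 67 genes were higher in Swarna and 3 were higher in Pokkali, with a median log2 ratio of 0.74. LOC_Os11g06770 had 14.9 FPKM in Swarna, against 0.123 in Pokkali (4.63), the largest ratio of all transcription factor genes. LOC_Os04g32790 had 11.5 FPKM in Swarna, against 1.87 in Pokkali, LOC_Os01g64790 had 16.96 FPKM in Swarna, against 3.13 in Pokkali, and LOC_Os02g52670 had 15.5 FPKM in Swarna, against 3.55 in Pokkali. Of the 26, 12 were also past 2-fold higher in Swarna after heading and 3 were higher in Pokkali. Of all 1433 genes higher in Swarna EP, 744 (51.9%) and 67 (4.68%) were.

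WRKY factors, many of which act in defence and senescence, had 11 of 40 genes higher in Swarna and 1 higher in Pokkali. LOC_Os02g08440 had 64.9 FPKM in Swarna, against 11.7 in Pokkali (2.42), LOC_Os05g27730 had 49.8 FPKM in Swarna, against 11.8 in Pokkali (2.03), and LOC_Os01g61080 had 5.2 FPKM in Swarna, against 0.256 in Pokkali (2.92). The median of the 40 genes was 0.26, where all genes at a like level had 0.17. Relative to all genes, the WRKY median was 0.33, or 0.11 after quantile normalization and 0.12 when centred by level. Among 49 bHLH genes, 9 were higher in Swarna and none was higher in Pokkali past 2-fold, with a median of -0.14, and after quantile normalization 8 and 2 were. LOC_Os01g50940 had 22.7 FPKM in Swarna, against 3.7 in Pokkali and LOC_Os02g51320, the most abundant of the 9, had 131 FPKM in Swarna, against 53.6 in Pokkali.

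Other families were split. NAC factors, some of which switch on secondary wall genes, had 4 of 47 higher in Swarna and 5 higher in Pokkali. NAC gene LOC_Os07g12340 had 11.05 FPKM in Swarna, against 0.891 in Pokkali (3.05), and LOC_Os05g48850 had 9.26 FPKM in Swarna, against 31.3 in Pokkali (-1.7). MYB genes had 5 of 45 higher in Swarna and 8 higher in Pokkali, with 25.3 FPKM in Swarna, against 7.1 in Pokkali for LOC_Os04g43680 and 6.26 FPKM in Swarna, against 28.4 in Pokkali for LOC_Os09g36730. In the CO-like zinc finger family, 3 of 9 were higher in Pokkali and none in Swarna, and LOC_Os06g19444 had 3.9 FPKM in Swarna, against 13.2 in Pokkali. The heat shock factor gene LOC_Os03g53340 had 14.04 FPKM in Swarna, against 0.132 in Pokkali (4.52) before heading and 0.37 FPKM in Swarna and 0.432 in Pokkali after it. The lowest ratio of the list was that of the TRAF gene LOC_Os12g02030, with 0.27 FPKM in Swarna, against 10.8 in Pokkali (-3.88), whose span holds a second gene.

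**Figure D4:**
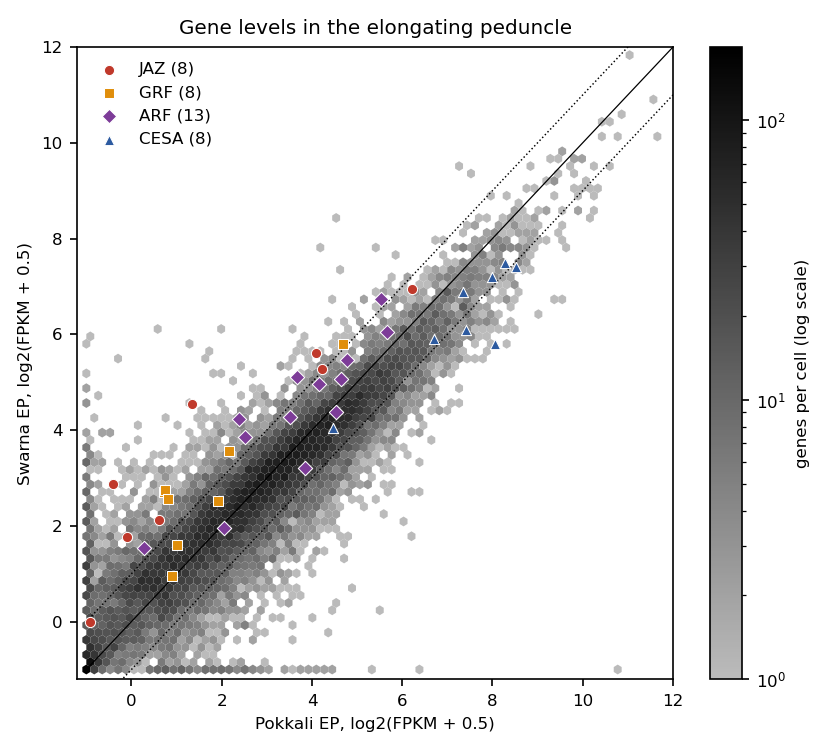
Level of each compared gene in Swarna EP (vertical) against Pokkali EP (horizontal), in log2 of FPKM plus 0.5, as counts of genes per cell on a log grey scale. The solid line marks equal levels and dotted lines 2-fold, JAZ (circles), GRF (squares, 7 of 8 after quantile normalization) and most ARF genes (diamonds) lie above the solid line, and the CESA genes (triangles) lie below it, 7 of 8 of them after quantile normalization.

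The peduncle before heading lies beside the young panicle, and the study's list of anther and pollen genes gives the level of such genes in these samples. Of 75 compared, 8 were higher in Swarna and 13 were higher in Pokkali, with a median log2 ratio of -0.10, where all genes at a like level had -0.25, and 4 and 9 of these came from the 49 genes listed as higher in the EP. With equal column sums, 11 were higher in Swarna and 7 were higher in Pokkali. *EDT1*, a gene for an ATP-grasp domain protein, had 5.73 FPKM in Swarna, against 85.8 in Pokkali (-3.79), and after heading 2.1 FPKM in Swarna and 19.4 in Pokkali. *OsTUB8*, a tubulin gene, had 31.3 FPKM in Swarna, against 90.5 in Pokkali, the glutamyl-tRNA synthetase gene *OsERS1* had 31.2 FPKM in Swarna, against 93.4 in Pokkali, and the aquaporin gene *OsPIP2;6* had 47.5 FPKM in Swarna, against 127 in Pokkali, but was under 2-fold after quantile normalization (-0.92). An aspartic proteinase gene, LOC_Os02g48900, had 37.3 FPKM in Swarna, against 139 in Pokkali (-1.88). Higher in Swarna were the auxin-conjugating *OsGH3.8*, with 18.7 FPKM in Swarna, against 2.65 in Pokkali (2.6), a lipid transfer protein gene, LOC_Os06g43600, with 109 FPKM in Swarna, against 35.7 in Pokkali, and LOC_Os04g34170, annotated as a retrotransposon protein, with 203 FPKM in Swarna, against 54.3 in Pokkali. The list thus held large differences in both directions, and the part of panicle tissue in them was not tested.

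The most abundant differing genes without a name in the study's tables were higher in Pokkali. The locus LOC_Os11g06720 had 1181 FPKM in Swarna, against 3313 in Pokkali (-1.49, or -0.96 when centred on genes of a like level), and after heading 3353 FPKM in Swarna and 7483 in Pokkali. The largest difference in the other direction was that of LOC_Os01g15270, with 752 FPKM in Swarna, against 159 in Pokkali (2.24), and after heading 1259 FPKM in Swarna and 135 in Pokkali.

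Some genes were detected in 1 cultivar only. With 1 FPKM or more in Swarna EP and less than 0.1 in Pokkali EP there were 297 genes, of which 193 are listed at 0 in Pokkali EP. The opposite pattern had 145 genes, of which 97 are listed at 0 in Swarna EP. At 10 FPKM or more, these numbers were 29 and 15. LOC_Os06g38210 had 60.2 FPKM in Swarna, against 0 in Pokkali, and after heading 1201 FPKM in Swarna and 0 in Pokkali, so it is listed at 0 in both Pokkali groups. An exact 0 can also be a failed estimate. LOC_Os09g08910 is listed at 0 in Swarna EP, against 1850.3 FPKM in Pokkali EP, but had 899 FPKM in Swarna and 2112 in Pokkali after heading, and no fold is given for it.

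The 2 sets differed in what the other cultivar had after heading. Of the 297 genes of Swarna EP, 261 (87.9%) were also below 0.1 FPKM in Pokkali NP. Of the 145 genes of Pokkali EP, 71 (49.0%) were below 0.1 FPKM in Swarna NP, and 66 more lay between 0.1 and 1 FPKM. For the 15 genes at 10 FPKM or more in Pokkali EP, Swarna NP had a median of 0.47 FPKM and 1 gene below 0.1, whereas for the 29 genes of Swarna EP, Pokkali NP had a median of 0 and 25 genes below 0.1. The share of all compared genes below 0.1 FPKM in each NP group was not counted, so these shares have no background beside them. In a span with several gene names were 66 of the 297 and 31 of the 145, against 3385 of all 19126 genes. Both sets were chosen by their EP values, and the source of the low values in Swarna NP was not tested.

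Differing genes were found on all 12 chromosomes. The share at least 2-fold apart in either direction ran between 14.7% on chromosome 3 and 23.5% on chromosome 11, with 21.5% on chromosome 12. Chromosome 11, with 976 of the 19126 genes, held 48 of the 297 genes detected in Swarna EP alone and 13 of the 145 detected in Pokkali EP alone. Chromosome 12, with 1070 genes, held 26 of the 297 and 23 of the 145. Runs of at least 3 neighbouring compared genes past 2-fold in the same direction numbered 30 higher in Swarna, with 104 genes, and 41 higher in Pokkali, with 134 genes. Of these, 6 and 5 runs lie in fewer than 3 assembled spans, so their genes are not separate values. The longest had 9 genes on chromosome 11, between 27670321 and 27890936 (Rice Genome Annotation Project version 7), all higher in Swarna, and began with the MYB gene LOC_Os11g45740, which had 6.55 FPKM in Swarna, against 0.566 in Pokkali. Its 9 genes lie in 5 assembled spans, so they are not independent values. A run of 6 genes on chromosome 5, between 16848213 and 16899135, was higher in Pokkali. Of the 19126 genes, 3385 lie in a span that holds several gene names, where reads may have been split between genes. Without these, 1137 genes were higher in Swarna and 1577 were higher in Pokkali.

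After heading about equal shares of both sets kept their direction. Of the 1433 genes higher in Swarna EP, 744 (51.9%) were past 2-fold in the same direction in the NP, 622 were less than 2-fold apart and 67 (4.68%) were past 2-fold in the opposite direction. Of the 1898 genes higher in Pokkali EP, 954 (50.3%) kept the direction past 2-fold, 800 were less than 2-fold apart and 144 (7.59%) were opposite. Of genes at least 4-fold apart, 69.1% of those higher in Swarna and 71.4% of those higher in Pokkali kept it. The same genes made up 19.0% of the NP genes higher in Swarna and 24.6% of the NP genes higher in Pokkali, so most NP differences were not past 2-fold in the EP. *OsACO3*, with 9.02 FPKM in Swarna and 7.1 in Pokkali after heading, and *GA2ox4*, with 9.84 FPKM in Swarna and 9.43 in Pokkali, are examples of differences past 2-fold in the EP alone. Genes past 2-fold in the EP and further apart after heading include *CESA4*, *OsJAZ1* and *DPEI*, which had 14.02 FPKM in Swarna and 118 in Pokkali in the NP. The change of ratio between stages was not tested.

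**Figure D5:**
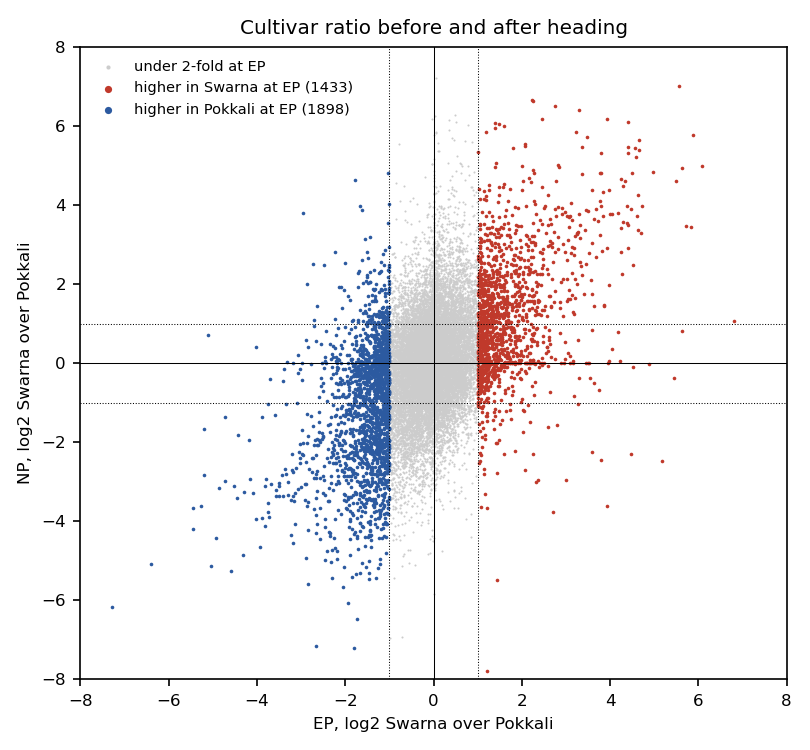
Log2 ratio of Swarna over Pokkali after heading (vertical, NP) against that before heading (horizontal, EP) for each compared gene, with the 1433 genes higher in Swarna EP in red, the 1898 higher in Pokkali EP in blue and 2-fold limits dotted. Most coloured genes keep the sign of their ratio after heading, and 6 genes lie outside the axes.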

How the data were processed

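RNA of peduncles was sequenced from TruSeq stranded total RNA libraries. By the study's methods and the submitters' processing notes, the authors trimmed and filtered reads (NGSQC Toolkit), mapped these by HISAT2 2.1.0 on version 7 of the reference from the Rice Genome Annotation Project, built transcripts in StringTie 1.3.3b, and obtained FPKM with Cufflinks and Cuffdiff. The deposited FPKM values hold 1 value per gene and group of 3 libraries, and the depth of each library is not in them. FPKM keeps neither counts nor replicates, so no test, interval or error was calculated, and the tests first planned on the libraries could not be run. A list is described by counts and a median.

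Rows naming a single locus were used, taking for a locus with several rows the one with the highest mean, and genes with 1 FPKM or more in at least 1 group. Ratios were taken on log2 of FPKM plus 0.5. No fold is given against a group listed at 0. The 6 gene lists come from the study's supplementary tables by locus. The members and lists were chosen with earlier results of these data known. Genes named are those the study names, up to 4 members of each list or family past 2-fold with 5 FPKM or more, further members of the same lists for contrast, chosen after their values were seen, the largest ratios among genes with 10 FPKM or more, and at most 2 loci without a name in each direction. Lists of other cell type markers and of words in descriptions were not used, since the gene reference at hand carries no identifiers of this annotation. The labelled tissue was therefore not checked against markers, beyond the anther and pollen list. A named gene of the lignin list is not reported here. The calculation was run on simulated data with 4-fold changes put into genes of 5 FPKM or more. Finding these past a 2-fold limit followed from that setting. It checks the code only, and not the spread between libraries, low genes or the trend with level. Python 3.11.15, numpy 2.4.6, pandas 2.3.3 and matplotlib 3.10.9 were used.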

Additional observations from a re-analysis of the deposited data

Results flagged for a closer look

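The cultivars differed past 2-fold in opposite directions before and after heading for 12 genes of the lists with 5 FPKM or more in the EP. Without that limit, 9 of 131 list genes higher in Swarna EP and 8 of 76 higher in Pokkali EP were opposite. Among all genes, 67 of 1433 and 144 of 1898 were. The NP ratios were not put through the alternative scalings. With 1 value per group, the difference between the stages was not tested. The values that follow are log2 ratios of Swarna over Pokkali in the EP and in the NP, and the EP ratio minus the NP ratio.

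Lower in Swarna before heading and higher after it were 6 genes. The vacuolar invertase gene *INV3/VIN2* was at -1.04 and 2.36, a difference of -3.40, but its EP ratio was under 2-fold under each other scaling tried, between -0.57 and -0.90. The bZIP gene LOC_Os02g09830 was at -2.23 and 2.81 (-5.04), and the MYB-related gene LOC_Os06g51260 at -2.64 and 1.43 (-4.07). The heat shock factor gene LOC_Os06g35960 was at -1.51 and 2.22 (-3.73), the MYB gene LOC_Os12g37970 at -1.48 and 2.02 (-3.49), and LOC_Os02g43660, for a plastocyanin-like protein, at -1.24 and 1.01 (-2.25). The EP ratio of LOC_Os02g43660 was under 2-fold with equal column sums (-0.90), after quantile normalization (-0.89) and when centred by level (-0.99). Its NP ratio rests on low values, 1.07 FPKM in Swarna and 0.28 in Pokkali.

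Higher in Swarna before heading and lower after it were the other 6. The auxin response repressors *OsIAA20* and *OsIAA9* were at 1.11 and -2.12 (3.23) and at 1.06 and -1.71 (2.78). The CPP gene LOC_Os12g41230 was at 1.84 and -2.22 (4.06), the C3H gene LOC_Os03g21140 at 1.73 and -1.18 (2.91), the AP2-EREBP gene LOC_Os01g21120 at 1.21 and -1.33 (2.54), and the *GRF* gene LOC_Os04g51190 at 1.10 and -1.25 (2.35).

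Outside the annotated loci, 1314 assembled transcripts without a locus name had 1 FPKM or more in Swarna EP or Pokkali EP. Past 2-fold were 362 (27.5%) in favour of Swarna and 229 (17.4%) in favour of Pokkali, against 7.79% and 10.8% of the 17408 annotated genes with 1 FPKM or more in Swarna EP or Pokkali EP.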

How the results depend on the processing

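No paired analysis was possible because the deposited values hold 1 value per group, and for the same reason no library could be left out. The numbers of genes at least 2-fold higher in Swarna and in Pokkali, 1433 and 1898 as reported, were 2335 and 1098 with equal column sums, 1726 and 1477 with the median ratio set to 1, and 1415 and 1543 after quantile normalization. Requiring 5 FPKM in Swarna EP or Pokkali EP gave 593 and 1422, and 10 FPKM gave 313 and 1126. Genes with a single row numbered 905 and 1349. A constant of 0.1 or 1 in place of 0.5 gave 2102 and 2257, or 1005 and 1620. Chosen after seeing the data, ratios centred on the median of genes of a like level gave 1395 and 1561.

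The 193 named or listed genes followed through the alternatives were chosen as past 2-fold in the main calculation. A change of sign was therefore unlikely from the start, and its absence is no check of direction. None changed sign, and 147 stayed past 2-fold wherever they were kept. Equal column sums brought 33 genes under 2-fold, quantile normalization 26 and centring by level 24, of which 33, 25 and 24 were higher in Pokkali. *CESA3* was then at -0.77, -0.63 and -0.62, *CESA7* at -0.97, -0.81 and -0.83, and *SUS1* at -0.97, -0.79 and -0.78. The median log2 ratio of the lignin genes, relative to all genes, was -0.32 as reported, 0.39 over the 5 genes with a single row and 0.0345 when centred by level. The *JAZ* median relative to all genes lay between 1.40 and 2.08 over all alternatives, and 5 of 8 *GRF* genes stayed past 2-fold under each scaling. Low FPKM values are the least precise, and depth per library was not used here.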

Other observations

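Several gene groups had a higher median log2 ratio after heading than before it, and in some the median went from below 0 to above 0. The median of the 996 genes in any list also rose, from 0.06 to 0.41. Past 2-fold higher in Swarna NP were 326 of these 996, and 20.4% of all compared genes. Other groups had a lower median after heading, such as *CESA* (-0.80 before and -2.05 after), *CSL* (-0.13 and -0.87), *GRF* (1.25 and 0.09) and *GA2ox* genes (1.48 and 0.02). Of the phospholipase D genes of the ABA list, 6 of 8 had the lower value in Swarna before heading, with a median log2 ratio of -0.38. The only one past 2-fold was higher in Swarna, *OsPLDα6*, with 2.93 FPKM in Swarna, against 0.86 in Pokkali. After heading 7 of 8 had the higher value in Swarna and 6 were past 2-fold, with a median of 1.34. The *PP2C* genes had 4 of 5 above 0 before heading, and all 5 after it, 4 past 2-fold. The *SWEET* genes had a median of -0.30 before and 0.87 after heading, and the sucrose cleavage genes -0.25 before and 1.18 after. Neutral invertase genes had a median of 0.36 before and 2.03 after heading.

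The CO-like genes had 8 of 9 ratios below 0 before heading, with a median of -0.78. After heading 6 of 9 were above 0, 2 of them past 2-fold, where 9672 of all 19126 genes were above 0. The auxin repressors had a median of 0.01 before heading and -0.74 after it.

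Neighbours in a shared span had opposite values. LOC_Os01g62750 was at 14.5 FPKM in Swarna, against 0.0133 in Pokkali, before heading. LOC_Os01g62740, in the same span on chromosome 1, was at 0.0101 FPKM in Swarna, against 79.7 in Pokkali. They were chosen after their values were seen, and how reads were divided between them was not tested.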
